A study of Homo sapiens with 40 samples.

Results

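Large topologically associating domains (TADs) of A549 control cells were selected on length: every domain of the control TAD list that spanned at least 1 Mb between its edges was taken. There were 452 such domains among 6118 control TADs. They made up 7.39% of the list by number and 29.5% of its length, 786 Mb in all. All other readouts below, that is the compartment score, histone mark peaks and the domain list of the knockout cells, were not used in the selection. The control compartment score came from the same Hi-C libraries as the control TAD list, so it is not fully independent of the selection.

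TADs are stretches of chromosome whose loci contact each other more often than they contact loci beyond the domain edge. Edges are often held by CTCF, a DNA-binding protein that stops loop extrusion by cohesin, or lie at active promoters. On a coarser scale chromosomes separate into an active A compartment and an inactive B compartment, and long domains in gene-poor regions typically belong to B. H3K9me3, a histone mark of constitutive heterochromatin placed by SETDB1 and the SUV39H enzymes, and H3K27me3, the mark of Polycomb repression, both occupy inactive chromatin and are often found in different places.

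A549 is an established human lung adenocarcinoma line, obtained from ATCC and carrying a mutant K-RAS. Control (CT) A549 cells were compared with A549 cells in which SETDB1, an H3K9 methyltransferase, had been disrupted by CRISPR/Cas9 from a plasmid (KO); whether the KO cells were a clone or a pool is not given in the sources used here. Hi-C had 2 libraries per genotype, ChIP-seq 2 libraries per mark and genotype, and RNA-seq 3 libraries per genotype. Peaks and TADs came as 1 list per mark and genotype, so coverage values and domain fates have no replicate error and no test. The compartment score came per Hi-C library and was tested. All positions are on hg19.

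The targeted transcript was examined in every RNA-seq library. SETDB1 stood at 36.4, 39.7 and 38.4 CPM (counts scaled to library size) in control libraries and at 23.7, 21.6 and 21.0 in KO libraries, with totals of 18065062 to 48364919 counts per library. The genotypes did not overlap, and the KO mean was 57.9% of the control mean (exact two-sided permutation p = 0.10, the smallest that 3 against 3 libraries allow). A transcript level does not show whether the remaining RNA is intact.

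The median large TAD was 1440 kb long, 117 domains reached 2 Mb and 39 reached 3 Mb. The longest was chr6:64580001-70380000 at 5800 kb, followed by chr10:54560001-59320000 at 4760 kb and chr2:80160001-84640000 at 4480 kb. A pair of domains tied at 4380 kb, chr13:53780001-58160000 and chr4:61080001-65460000. Just inside the limit lay 16 domains of 1000 kb and just outside it 25 of 980 kb, the TAD edges lying on a 20 kb grid. These neighbours were alike: 9 of 16 and 13 of 25 had a negative control compartment score, and H3K9me3 peaks covered 12.3% and 12.9% of their length in control and 28.4% and 27.6% in KO. The 1 Mb limit thus divides a continuous range. The KO list held 413 domains of at least 1 Mb among 6283, spanning 692 Mb.

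Large TADs were mostly B domains. By the sign of the mean control score, 372 of 452 (82.3%) were B and 80 (17.7%) were A, whereas 78.8% of the smaller TADs with a score were A. The orientation of the score was checked with H3K27ac, a mark of active promoters and enhancers: its control peaks covered 6.94% of the 100 kb bins with a positive score and 0.432% of those with a negative score. Most large TADs were uniform, 260 having every scored bin negative and 42 every scored bin positive, and 150 were mixed. The median score was -0.68 in large B domains and -0.33 in smaller B domains, so large B domains lay further from zero. The score was available over at least 80% of the length for 442 of the 452 domains.

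H3K9me3 peaks covered 17.7% of the summed length of large TADs in control and 53.2% in KO. In smaller TADs the shares were 10.2% and 10.6%. The difference had opposite signs in the compartments: large B domains were covered to 18.2% in control and 60.4% in KO, and large A domains to 14.8% and 6.84%. Smaller domains had the same signs, with 11.9% and 33.4% in B and 9.60% and 2.00% in A. Per domain, the median of large TADs was 11.2% in control (quartiles 5.25% and 23.0%) and 56.9% in KO (quartiles 10.6% and 82.8%).

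**Figure D1:**
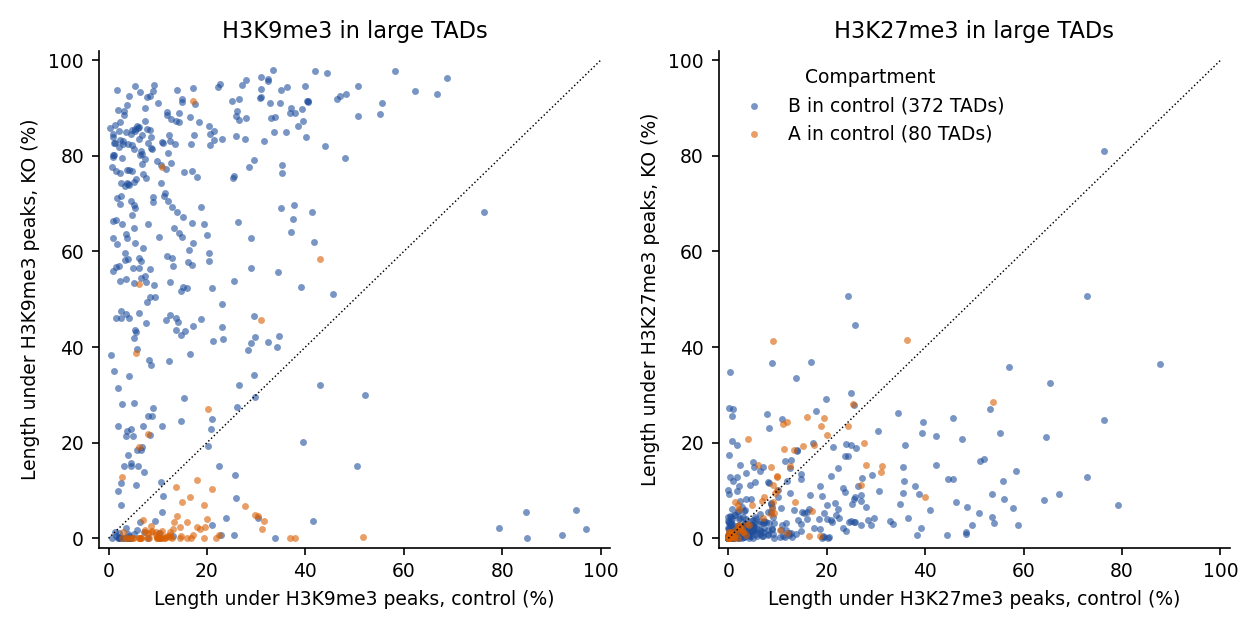
Share of each large TAD's length under H3K9me3 peaks (left) and H3K27me3 peaks (right), control on the x axis and KO on the y axis, both in percent. Each point is 1 of 452 large TADs, blue for B and orange for A in control, and the dotted line marks equal coverage. For H3K9me3 most blue points lie high above the line and most orange points lie below it, while for H3K27me3 many blue points with high control values lie below it.

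A difference of at least 10 percentage points was used to count domains. H3K9me3 coverage was higher in KO by this margin in 312 of 452 large TADs, or 69.0%, against 14.1% of all control TADs. It was lower in 57, or 12.6%, against 21.2% of all control TADs, and within the margin in 83. Of the 372 B domains 303 were higher and 21 lower, and of the 80 A domains 9 were higher and 36 lower. Every large TAD held some H3K9me3 peak in control, whereas 31 held none in KO, 22 of them A domains. At the other end, 132 large TADs were covered over at least 80% of their length in KO and 5 in control.

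The mark in KO took the form of long peaks. Large TADs held 38803 H3K9me3 peaks with 3.60 kb of covered length per peak in control, and 26066 peaks with 16.1 kb per peak in KO. Peaks of at least 100 kb numbered 676 in the KO list, of which 564 (83.4%) were centred in large TADs and spread over 193 of them. In the control list there were 35 such peaks, 20 of them in 7 large TADs. Large TADs, with 29.5% of the TAD length, held 40.5% of all H3K9me3 peak length in control and 67.1% in KO. Of the KO peak length, 78.1% in large TADs and 81.9% in smaller ones lay outside control peaks. Control peaks covered only 17.7% and 10.2% of all length there, so most of all sequence lay outside them too. In large TADs 34.4% of the control H3K9me3 length lay outside KO peaks, which covered 53.2% of all length. That share was 87.2% in large A domains and 27.8% in large B domains. KO peaks covered 6.84% and 60.4% of all length in these classes.

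Within large B domains the KO mark followed the domain edges. Averaged over the 372 domains on a common scale, KO coverage was 63.9% over the central 20% of the length, 44.3% over the outer 10% at each end and 23.0% in flanks of 0.5 TAD lengths. Control coverage was 19.7%, 12.7% and 11.6% over the same stretches. The step was seen at edges shared with either class of neighbour. In the 100 kb on either side of 233 edges between a large B domain and an A domain, KO coverage averaged 22.7% inside and 4.63% outside, and control coverage 13.4% and 10.3%. At 376 edges between a large B domain and another B domain the KO values were 47.4% inside and 36.0% outside. Neighbours were often large too, with 59 pairs of large TADs sharing an edge.

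**Figure D2:**
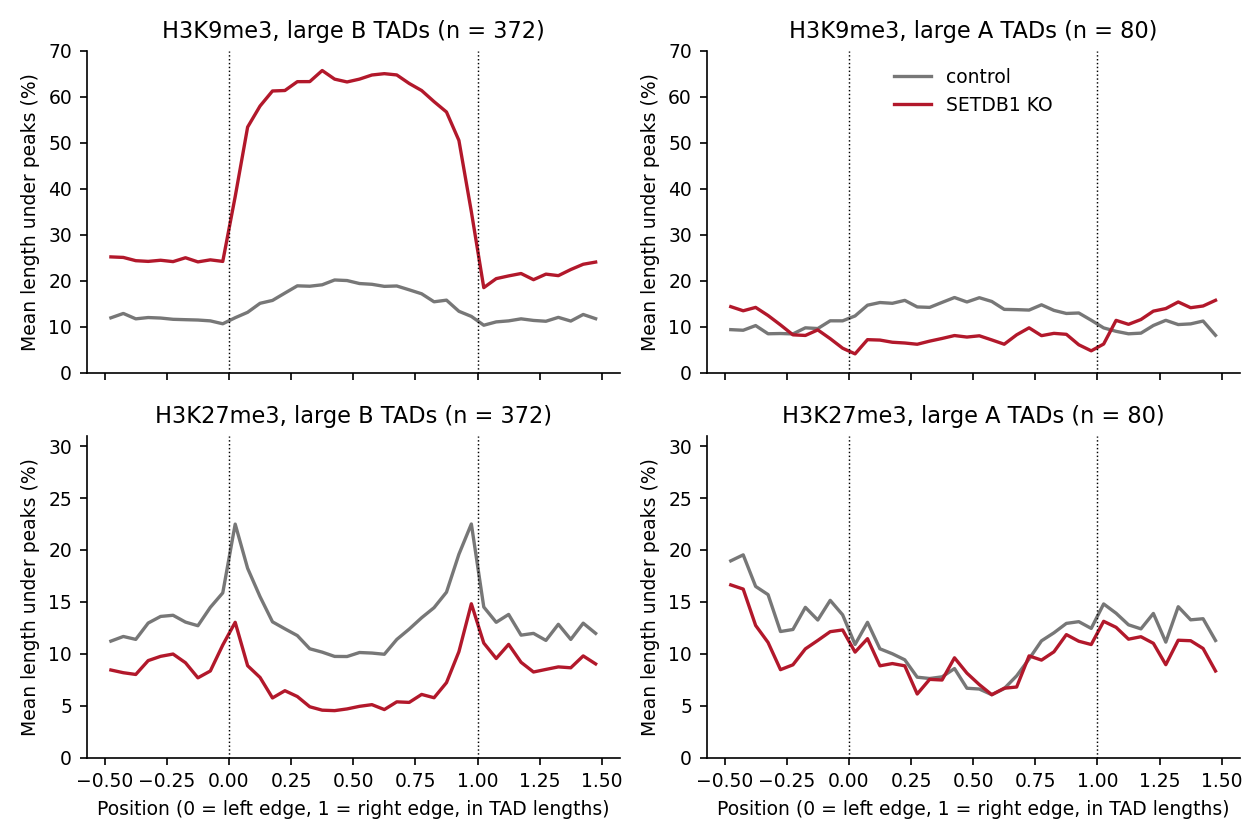
Mean share of length under H3K9me3 peaks (top) and H3K27me3 peaks (bottom) in percent, along large B TADs (left) and large A TADs (right) scaled to a length of 1, with flanks of 0.5 lengths; grey is control and red is KO. H3K9me3 in KO climbs steeply within the edges of B domains to 63.9% over the central 20% of the length, and H3K27me3 in both genotypes peaks near the edges of B domains.

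The domains with the most additional H3K9me3 in KO held little of it in control, which a ranking on the difference requires. Those on chromosomes 1, 13, 18 and X lay on chromosomes where control coverage of large TADs was low, as described below. At chr18:37760001-39520000 peaks covered 1.76% in control against 93.8% in KO, and at chr13:58160001-59920000 the shares were 5.47% and 94.7%. At chr11:131560001-132920000 the values were 4.11% and 92.6%, at chr1:71540001-74480000 they were 1.86% and 89.7%, and at chrX:144300001-146940000 they were 3.69% and 90.7%. All of these were B domains in both genotypes with no KO boundary inside. The compartment score of the chromosome 18 domain was -0.94 and -0.91 in the control libraries and -1.14 and -1.13 in the KO libraries, and those of the others differed by at most 0.10 in size. The chromosome 18 and 11 scores fell (limma adjusted p 0.00033 and 0.0074), and those of the remaining domains did not pass the test (adjusted p 0.67, 0.070 and 0.23).

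The domains furthest below their control H3K9me3 level were marked over most of their length in control, as falls of this size require. Of these, 4 of 5 lay on chromosome 19. This chromosome carries large clusters of KRAB zinc finger genes, which are known carriers of H3K9me3 in many cell types; genes were not placed in domains here. Control and KO coverage were 97.0% and 1.95% at chr19:57640001-58680000, 92.2% and 0.736% at chr19:36680001-38380000, and 95.1% and 5.99% at chr19:52760001-54280000. They were 84.9% and 5.47% at chr19:22180001-24460000, and 79.3% and 2.08% at chr5:177640001-178940000. All of these domains were split in KO, and the compartment score of each rose. At chr19:36680001-38380000 it was -1.23 and -1.35 in the control libraries and 0.14 in both KO libraries, a difference of 1.43 (SE 0.042, limma adjusted p 4.5e-06). At chr5:177640001-178940000 it was -0.11 in both control libraries and 1.19 and 1.14 in the KO libraries, a difference of 1.28 (SE 0.024, limma adjusted p 1.8e-06).

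Coverage of large TADs also varied by chromosome. On chromosomes 1, 4, 6, 13, 18 and X, with 167 of the large TADs, control H3K9me3 coverage was 5.12% to 8.59%, and over these chromosomes together 6.27% in control and 41.6% in KO. On the other 17 chromosomes together it was 24.2% and 59.8%. CTCF peaks in large TADs followed much the same division, with 1.44 per Mb in control and 2.80 in KO on the former and 10.8 and 9.99 on the latter. The latter values include chromosome 2, which had the largest fall, from 14.9 to 5.68 per Mb, while the rest of these chromosomes differed in direction. Chromosome 21, with 0.522 CTCF peaks per Mb beside 23.9% H3K9me3 coverage in control, departed from this division. Chromosomes 1 and 22, with 4.98 and 3.03 per Mb beside 8.59% and 11.2%, lay between. The division was not particular to large TADs. In smaller TADs control H3K9me3 coverage was 6.88% to 8.27% on the former chromosomes. It was 8.37% to 19.4% on the latter, apart from chromosome 22 with 6.69%. Control CTCF peaks in smaller TADs numbered 2.69 to 3.80 per Mb on chromosomes 4, 6, 13, 18 and X, and 5.20 to 23.1 on all others. The part of this division in the H3K9me3 result was not tested. The direction was shared: summed KO coverage was above control on 22 of 23 chromosomes, the exception being chromosome 19 with 84.3% in control and 28.1% in KO. Chromosome 4 stood low in KO, with 21.8% over 36 large TADs, 18 of which lay within 10 points, and chromosome 21 stood highest with 86.9% over 6.

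Within B, marks were graded with domain length. KO H3K9me3 coverage was 16.2% in B domains under 300 kb, 37.5% at 500 to 800 kb, 47.0% at 800 to 1000 kb, 56.7% at 1000 to 1500 kb and 64.0% from 2000 kb. Control coverage ran only from 11.5% to 21.1% over the same classes. H3K27me3 ran the other way in control, from 31.5% under 300 kb to 20.2% at 1000 to 1500 kb and 4.87% from 2000 kb. Large B domains therefore had less H3K27me3 and, in KO, more H3K9me3 than short ones, and the classes on either side of 1 Mb were neighbours in this order.

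**Figure D3:**
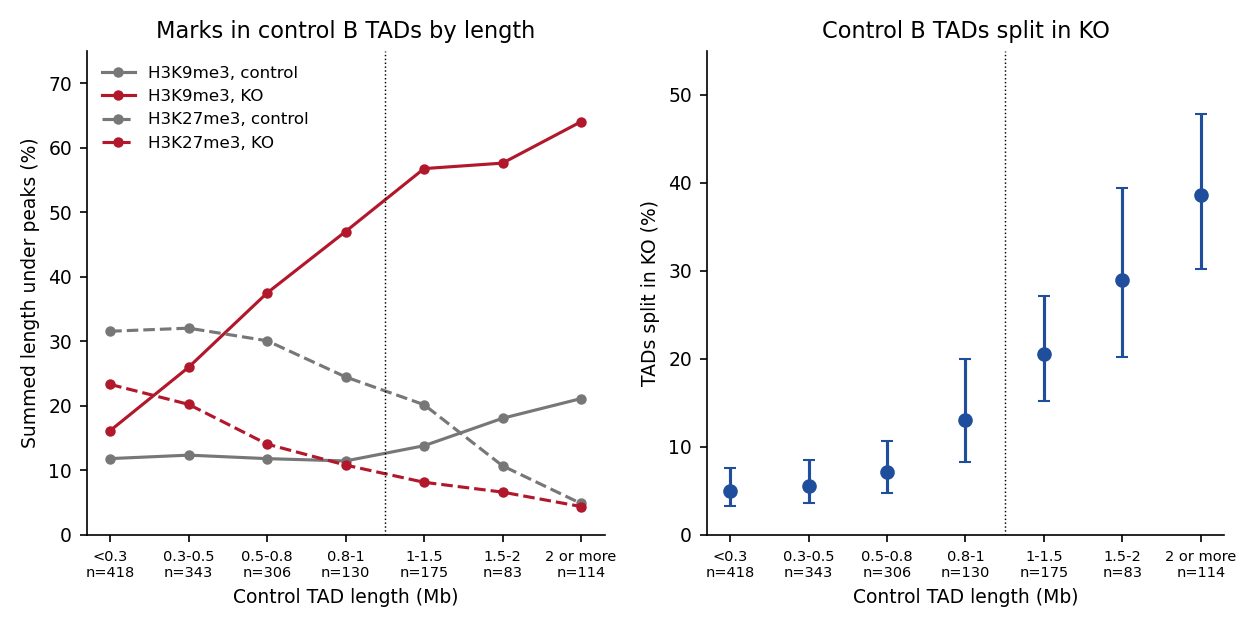
Left, summed share of length under H3K9me3 (solid) and H3K27me3 (dashed) peaks in percent for control B TADs in 7 length classes, grey for control and red for KO. Right, percent of the same TADs split in KO with 95% Wilson intervals; the dotted line marks 1 Mb. KO H3K9me3 coverage reaches 64.0% and the split share 38.6% in domains of 2 Mb or more.

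H3K27me3 peaks covered 10.7% of large TADs in control and 6.42% in KO, against 14.8% and 12.0% in smaller TADs. The difference was larger in B domains, with 10.9% and 6.04%, while large A domains had 9.53% and 8.86%. Coverage was lower in KO by at least 10 points in 115 large TADs, or 25.4%, against 12.1% of all control TADs. It was higher in 26, or 5.75%, against 5.62% of all control TADs, a share near the background. Of the 115 domains with less H3K27me3, 105 were B domains, 105 had H3K9me3 coverage higher by at least 10 points, and 84 stayed whole. Among all 452 large TADs these counts were 372, 312 and 274. Of the 105 B domains 100 had higher H3K9me3 coverage, against 303 of all 372 large B domains. Of the 26 with more H3K27me3, 20 were split, against 125 of all 452.

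The overlap of the marks was then measured base by base. Of the control H3K27me3 length in large B domains, 61.0% lay under KO H3K9me3 peaks, against 19.7% under control H3K9me3 peaks. In smaller B domains the shares were 42.4% and 19.5%. Large B domains had 60.4% of all their length under KO H3K9me3, so the pooled share for control H3K27me3 sequence was near that of all sequence. The length classes differed. The shares were 64.5% of control H3K27me3 length against 56.7% of all length at 1000 to 1500 kb, and 60.2% against 57.6% at 1500 to 2000 kb. From 2000 kb they were 52.0% against 64.0%. In smaller B domains they were 42.4% against 33.4%. In the profile along large B domains H3K27me3 was highest next to the edges, with 20.7% of the outer 10% at each end and 9.93% of the central 20% covered in control, and 11.7% and 4.83% in KO.

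In the domains furthest below their control H3K27me3 level, H3K9me3 covered more than in control. KO coverage was high in large B domains in general, with a median of 66.7% and quartiles of 39.2% and 84.6%. The chromosome 11 and 2 domains below lay under that median and the others above it. At chr14:33040001-34280000 H3K27me3 coverage was 79.3% in control and 7.03% in KO, while H3K9me3 coverage was 7.82% and 85.7%. At chr18:22320001-23500000 H3K27me3 was 58.8% and 2.69%, and H3K9me3 4.57% and 84.6%. At chr7:77580001-78840000 H3K27me3 was 64.2% and 8.06%, and H3K9me3 4.07% and 73.8%. In each of these domains H3K27me3 was the wider mark in control and H3K9me3 the wider in KO. At chr11:127000001-128000000 H3K27me3 was 72.9% and 12.7%, and H3K9me3 8.36% and 56.3%. At chr2:40800001-42040000 H3K27me3 was 67.2% and 9.37%, and H3K9me3 8.12% and 65.8%. The compartment score fell in all of these B domains, at chr18:22320001-23500000 from -0.50 and -0.52 in the control libraries to -1.21 and -1.18 in the KO libraries (difference -0.68, SE 0.023, limma adjusted p 6.0e-06).

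Of the 5 domains furthest above their control H3K27me3 level, all were split in KO, and the score rose in 4 and fell in the remaining domain. At chrX:115000001-117120000 H3K27me3 peaks covered 0.333% in control against 34.8% in KO. Its score was -0.82 in both control libraries and 0.54 and 0.56 in the KO libraries. At chr13:22180001-23920000 coverage was 8.95% and 36.7%, and at chr16:50840001-51840000 it was 24.2% and 50.6%. Scores rose by 1.37, 0.51 and 0.34 (limma adjusted p 1.8e-06, 8.9e-06 and 4.5e-05).

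The compartment score was tested over 6088 control TADs with limma and Benjamini-Hochberg adjustment, at an adjusted p under 0.05. Among the 452 large TADs the score rose in 163, or 36.1%, against 22.8% of all control TADs tested. It fell in 211, or 46.7%, against 44.0% of all, a share near the background. With each column divided by its SD the falls were 40.3% of large TADs against 50.8% of all, without the first KO library 39.82% against 39.98%, and over single 100 kb bins 33.9% against 37.3%, so the order for falls turned under these settings. Larger domains average more bins, and the median SE was 0.021 in large TADs and 0.024 in smaller ones. Large A domains had 41 rises and 26 falls, and large B domains 122 rises and 185 falls. Rises were fewer, and their median size was larger, 0.28 against -0.22 for falls. The length-weighted mean over all large TADs was -0.54 in both control libraries and -0.50 in both KO libraries, a difference of 0.041. The median domain difference was -0.034, so mean and median differed in sign. Every KO library lay above every control library, and the exact two-sided permutation p of 0.33 is the smallest that 2 against 2 libraries allow.

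Score calls and H3K9me3 differences were mostly opposite in sign. Of the 312 domains with more H3K9me3, 60 had a risen score and 189 a fallen one. Of the 57 with less, 43 had risen and 8 fallen. A risen score did not require less of the mark, as the 60 rises among domains with more of it show. Of the 83 domains within 10 points, 60 rose and 14 fell. Their median coverage was 7.33% in control and 1.40% in KO. A domain under 10% in control cannot fall by 10 points, so this group includes domains that held less in KO.

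**Figure D4:**
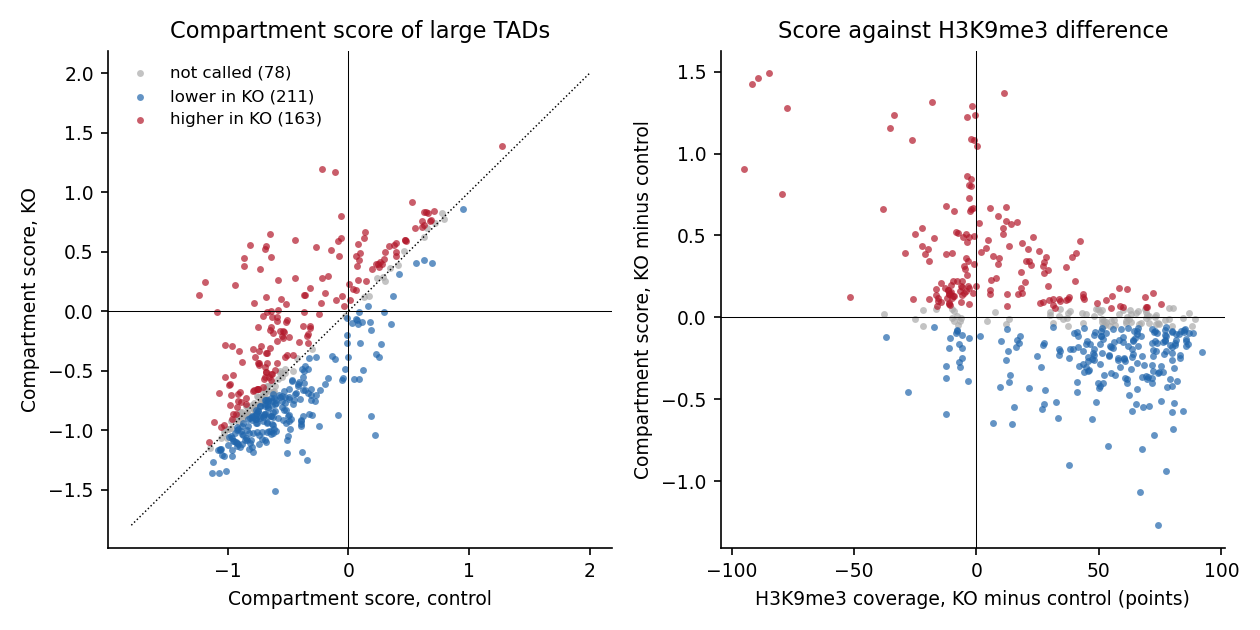
Left, mean compartment score of each large TAD in control (x axis) and KO (y axis), from the deposited score of each genotype. Right, score difference, KO minus control, against the H3K9me3 coverage difference in percentage points; red marks the 163 domains with a risen score, blue the 211 with a fallen one and grey those not called. In the right plot 89 of the 163 red points lie at or left of 0 points, and 192 of the 211 blue points lie right of it.

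The mean score changed sign in 57 large TADs. In 38 it went from B to A, and in 19 from A to B, and all 57 passed the limma test in that direction. These were 10.2% of the large B domains (interval 7.53% to 13.7%), against 14.2% of all B TADs, and 23.8% of the large A domains (interval 15.8% to 34.1%), against 9.05% of all A TADs. The sign was the same in both libraries of each genotype in 37 of 38 and 18 of 19. A domain nearer zero needs a smaller shift to change sign. The median control score was 0.28 in large A domains and 0.70 in smaller A TADs. The score fell in 26 of the 80 large A domains and in 1774 of the 4439 smaller A TADs, so sign changes and falls ranked these sets differently. The B to A domains had H3K9me3 coverage of 18.6% in control and 3.40% in KO, with medians of 6.79% and 0.677%, so most held little of the mark in either genotype. Peaks of H3K4me3, the mark of promoters, numbered 9.41 per Mb in these domains in control and 33.4 per Mb in KO, and H3K27ac peaks 3.64 and 13.6 per Mb. In the 334 domains that stayed B the H3K4me3 densities were 4.45 and 8.85 per Mb. The 19 A to B domains had 12.7 and 12.6 H3K4me3 peaks per Mb, and their H3K9me3 coverage was 15.5% and 24.7%. Their medians were 13.7% and 12.8%, and coverage was higher by at least 10 points in 9 of the 19 and lower in 4.

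Among the largest sign changes, chr4:92020001-93320000 held almost no H3K9me3 in either genotype, 1.93% in control and none in KO. Its score was -0.64 and -0.65 in the control libraries and 0.65 and 0.64 in the KO libraries, a rise of 1.29 (SE 0.020, limma adjusted p 1.8e-06), and it held 5 H3K4me3 peaks in control and 30 in KO. At chr13:82480001-85440000 the score went from -0.72 and -0.67 to 0.52 and 0.53 (limma adjusted p 1.8e-06), with H3K9me3 coverage of 3.95% and 0.0455%. At chr3:94580001-96560000 it went from -0.68 in both control libraries to 0.53 and 0.57 (limma adjusted p 1.8e-06), with H3K9me3 coverage of 33.9% and 0.0471%, and 1 H3K4me3 peak in control against 97 in KO. The largest fall was at chr12:115080001-116180000, from 0.22 and 0.23 to -1.03 and -1.05 (difference -1.27, SE 0.021, limma adjusted p 1.8e-06). There H3K9me3 coverage was 17.2% and 91.4%, H3K27me3 coverage 16.3% and 0.518%, and H3K27ac peaks numbered 24 and 2. Score differences of -1.07 at chr13:74860001-75880000 and -0.94 at chr3:34740001-36000000 (limma adjusted p 1.8e-06 and 2.2e-06) stood beside H3K9me3 coverage of 10.9% and 77.7% and of 11.8% and 89.3%.

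The KO list was then searched for the edges of each large TAD. An edge was matched by a KO TAD boundary within 1 bin of 20 kb, and a boundary further inside than that counted as an inner boundary. By these definitions 274 of 452 large TADs (60.6%) stayed whole, against 87.1% of all control TADs. Another 125 (27.7%, 95% Wilson interval 23.7% to 32.0%) held at least 1 inner boundary and are called split, against 6.42% of all control TADs. The remaining 53 (11.7%) had no inner boundary and at least 1 unmatched edge and are called extended, against 6.46% of all. Left edges were matched for 403 domains and right edges for 412, and 93 of the 125 split domains had both edges matched. Split does not always mean divided into pieces, because an edge shifted inward by more than 1 bin also gives an inner boundary. At chr15:27120001-28380000, called split, the KO list had 1 domain of 1220 kb. Intervals on shares of domains cover counting error only.

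Because a long domain offers more places for a boundary, density was also compared. Large TADs held 220 inner KO boundaries, 0.280 per Mb, against 0.153 per Mb in smaller TADs. This order depended on the matching distance: it was 0.379 against 0.688 per Mb when edges had to lie in the same bin, and 0.257 against 0.0856 within 2 bins. Counted in the other direction, KO domains of at least 1 Mb held 0.137 inner control boundaries per Mb, and 77 of 413 (18.6%, interval 15.2% to 22.7%) were split in the control list. This mirrored count applies the same choice on length to the KO list. It lay below the 27.7% seen for control domains, but with 1 list per genotype the difference was not tested. Its size depended on the matching distance. Split shares were 39.8% of control and 32.4% of KO domains when edges had to lie in the same bin, and 24.8% and 12.6% within 2 bins. Of the split domains 67 had 1 inner boundary, 38 had 2 and 20 had more. The whole and split shares also depended on the matching distance, 39.6% and 39.8% when edges had to lie in the same bin and 67.3% and 24.8% within 2 bins.

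Split and extended domains differed in their marks. Median KO H3K9me3 coverage was 85.6% in extended domains, 61.1% in whole domains and 23.4% in split domains, while control medians were 11.8%, 10.6% and 13.3%. The score rose in 91 of 125 split domains and fell in 19. It fell in 36 of 53 extended domains and rose in 4. B to A domains were split in 25 of 38 cases (65.8%, interval 49.9% to 78.8%), and none was extended, whereas domains that stayed B were split in 79 of 334 (23.7%, interval 19.4% to 28.5%) and extended in 50. Large A and large B domains were split about equally often, 21 of 80 (26.3%, interval 17.9% to 36.8%) and 104 of 372 (28.0%, interval 23.6% to 32.7%). These pooled shares mix lengths, the medians being 1220 kb in A and 1540 kb in B. At 1000 to 1500 kb 19 of 67 A domains (28.4%) and 36 of 175 B domains (20.6%) were split. At 1500 to 2000 kb the counts were 2 of 10 and 24 of 83, and from 2000 kb 0 of 3 and 44 of 114.

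The outcome differed most between the ends of the range of H3K9me3 differences. All 7 domains whose coverage was lower by more than 50 points were split, and so were 10 of 16 lower by 20 to 50 points. In the middle of the range there was no steady order: 33 of 98 domains (33.7%) lower by up to 20 points were split, 24 of 49 (49.0%) higher by up to 20 points and 32 of 95 (33.7%) higher by 20 to 50 points. Of the 187 domains higher by more than 50 points 19 (10.2%, interval 6.60% to 15.3%) were split and 43 were extended. The latter were 43 of all 53 extended domains.

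**Figure D5:**
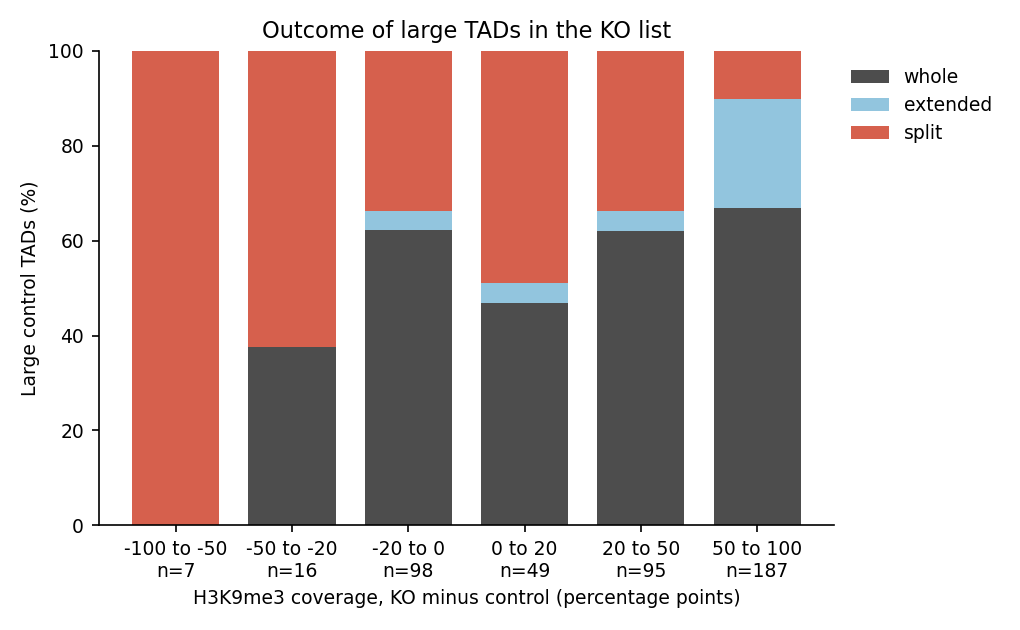
Percent of large control TADs that were whole (dark grey), extended (light blue) or split (red) in the KO list, by the difference of H3K9me3 coverage in percentage points, with the number of domains under each bar. The split share is 100% in the 7 domains of the leftmost bar and 10.2% in the 187 of the rightmost, where the extended share is 23.0%.

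Peaks near inner KO boundaries were compared with those near other positions of the same domains. An H3K4me3 peak centre lay within 1 bin of 25.0% of the 220 inner boundaries in control and of 65.5% (interval 58.9% to 71.4%) in KO. At the other 11785 grid positions inside the same split domains the shares were 17.8% and 43.5%. A CTCF peak lay within 1 bin of 28.2% of inner boundaries in control and 49.1% (interval 42.6% to 55.7%) in KO, while the other positions had 22.2% and 19.7%. For comparison, the 845 distinct edges of the large TADs had CTCF at 41.2% in control and 58.1% in KO, above the share at inner boundaries in both genotypes. An H3K27ac peak lay at 10.0% of inner boundaries in control and 35.9% in KO, against 7.83% and 18.4% of the other positions. H3K27me3, a repressive mark, also lay near more inner boundaries than other positions in KO, 48.6% against 29.1%, with 22.3% against 23.5% in control. For H3K9me3 the shares were 45.0% against 53.4% in KO and 81.4% against 74.2% in control. The positions share domains and are not independent.

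Compartment score and H3K9me3 were also read at the inner boundaries. The median score of the 100 kb bin was -0.67 in control and -0.20 in KO, and the KO value was the higher in 181 of 215 boundaries with a score. Split domains rose as a whole, with a median domain score of -0.61 in control and -0.29 in KO. Scores at the other positions were not compared, so the rise is not shown to be particular to the boundaries. In the 200 kb on each side, 104 of 220 boundaries had H3K9me3 coverage under 10% on both sides in KO, and 47 separated sides that differed by more than 50 points, against 0 in control. In control 65 of the same positions had coverage under 10% on both sides. At the other positions of the same domains, coverage in KO was under 10% on both sides at 40.1%, against 47.3% of the inner boundaries (interval 40.8% to 53.9%), so low coverage was common throughout these domains. Sides differing by more than 50 points were found in KO at 5.43% of the other positions and 21.4% of the inner boundaries (interval 16.5% to 27.2%). In control such sides were rare anywhere, at 0.102% of the other positions. Control coverage was under 10% on both sides at 37.7% of the other positions and 29.5% of the inner boundaries.

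Single domains show the range of outcomes. The domain with the most inner boundaries, 8, was chr2:80160001-84640000, with H3K9me3 coverage of 52.1% in control and 30.0% in KO. Its score rose from -0.62 in both control libraries to -0.19 in both KO libraries (difference 0.43, SE 0.020, limma adjusted p 1.4e-05). It held 9 H3K4me3 peaks in control and 150 in KO, and 91 and 32 CTCF peaks. At chr19:36680001-38380000, with 7 inner boundaries, H3K4me3 peaks numbered 36 and 109 and H3K27ac peaks 20 and 113. At chr4:61080001-65460000 the score went from -0.68 in both control libraries to 0.11 and 0.13 (difference 0.80, SE 0.021, limma adjusted p 3.2e-06), and the KO list had pieces of 260, 2260, 520 and 1340 kb between its control edges. H3K9me3 peaks covered 11.2% of this domain in control, as in the median large TAD, and 8.79% in KO. Its H3K4me3 peaks numbered 3 and 110.

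Other long domains were whole and heavily marked in KO. At chr10:54560001-59320000 H3K9me3 peaks covered 34.8% in control against 91.0% in KO, and at chr13:53780001-58160000 they covered 7.74% and 92.4%. Their score differences were -0.016 (adjusted p 0.52) and -0.077 (limma adjusted p 0.024). At chr6:64580001-70380000, the longest domain, coverage was 7.11% and 76.3%, and a single inner boundary divided it into KO domains of 3220 and 2660 kb. More H3K9me3 and a split occurred in the same domain in 63 of the 312 domains with more of the mark.

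Active marks were sparse in large TADs in both genotypes and denser in KO. H3K4me3 peaks numbered 6.84 per Mb in control and 13.1 per Mb in KO, against 26.5 and 30.4 per Mb in smaller TADs. H3K27ac peaks numbered 3.46 and 5.85 per Mb, against 27.3 and 27.9 per Mb. CTCF peaks numbered 7.44 and 7.41 per Mb, while in smaller TADs they numbered 9.28 and 14.7 per Mb, in lists whose totals were 23903 in control and 34474 in KO. The pooled values for large TADs mix different directions. CTCF peaks numbered 3.37 and 6.59 per Mb in large A domains and 8.07 and 7.53 in large B domains. Large TADs of chromosome 2 had the largest fall, from 14.9 to 5.68 per Mb, and other chromosomes differed in direction. List totals for H3K4me3 were 56854 and 69459, so the whole list was longer in KO.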

How the data were processed

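In situ Hi-C with DpnII, ChIP-seq (MNase for histone marks, sonication for CTCF) and RNA-seq were made by the authors, per the labels' protocols. The submitters' processing notes name STAR 2.6.1c, edgeR 3.30.0, Bowtie2 2.2.3, SAMtools 1.5, Picard and MACS2 with build hg19, with no roles; the peak threshold, TAD caller, compartment method and pooling are not given in the sources used here. The deposited gene table held whole-number counts, of which only the SETDB1 row and library totals were used (as CPM, scaled to the library total). The deposited peak and TAD lists held positions only, and peak depth is unknown. Compartments were deposited as a signed score in 100 kb bins, 1 column per library and 1 per genotype. No per-sample column was left without a sample (0 columns).

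Scores were averaged per control TAD, weighted by overlap, and tested with limma 3.58.1 in R 4.3.3 over 6088 TADs, genotype being the only term, after a check on simulated scores. Class is the sign of the mean genotype score. Coverage is the share of length under merged peaks; peaks were counted by centre. Intervals are 95% Wilson intervals. Python 3.11.15, numpy 2.4.6, pandas 2.3.3 and scipy 1.17.1 were used. Nothing says that libraries came from separate cultures, so p-values measure only the spread between these libraries.

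The members and lists were chosen with earlier results of these data known. Named domains were the 5 longest and, among domains with a score over at least 80% of their length, the 5 with the largest difference each way in H3K9me3, H3K27me3 and score, the 5 with most inner boundaries and the 10 largest sign changes; not all are printed. Genes, sequence and input libraries were not used here. Alternatives are in the closing section.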

Additional observations from a re-analysis of the deposited data

How the results depend on the processing

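Of 68 alternative values for large TADs 57 stayed close to the reported value. Close means within 1.5 times for numbers of domains and for shares of domains with a changed score or H3K9me3 coverage, and within the 95% Wilson interval at n = 452 for covered length, outcome and class. Covered length is a share of base pairs and not of domains. For it the interval is only a fixed yardstick and measures no spread. Comparisons with other TADs turned in places: inner boundaries per Mb under the same-bin rule (0.379 in large and 0.688 in smaller TADs), and the share of fallen scores against all TADs with columns divided by their SD, without the first KO library and over single bins. The same-bin rule for boundaries gave 39.6% whole and 39.8% split, and the 2-bin rule 67.3% whole. At a margin of 5 points, H3K9me3 coverage was lower in 89 domains and H3K27me3 coverage higher in 48. At 20 points these counts were 23 and 8, and H3K27me3 coverage was lower in 63. Asking for at least 2 in 3 bins of the same sign gave 14.4% A. Leaving out chromosomes 1, 4, 6, 13, 18 and X, an alternative chosen after seeing the data, gave H3K9me3 coverage of 24.2% in control and 59.8% in KO, with 26.0% of domains split.

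Leaving out each Hi-C library in turn gave a risen score in 32.3% to 35.0% of large TADs and a fallen one in 39.8% to 45.4%; the lone library of a genotype is then assumed to vary like the others. Dividing each column by its SD gave 180 rises and 182 falls, where the main counts are 163 and 211. The replicate numbers did not pair the Hi-C libraries (r = -0.019 across TADs, which are not independent replicates), and with a replicate block the shares were 35.2% and 45.6%. With 1 list per genotype, coverage and outcome have no replicate error, and peak depth is unknown.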
